A study of Rattus norvegicus with 36 samples.

Results

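The transcripts described here belonged to a set of 33 genes that mark B cells, plasma cells and the epithelium that covers intestinal lymphoid follicles. They were found by gene symbol in the table of raw counts, and 31 of the 33 had reads, out of 24773 genes in the table. The symbol Ltb had no row, and Vpreb3 had a row with 0 reads in every library. By role, 25 of the 33 were B cell and follicle genes, 5 were plasma cell genes and 3 were genes of the follicle epithelium. The rule was a list of symbols and used no threshold on a measured value, but the list was drawn up with earlier results of these data known.

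The tissues came from male UCD-T2DM rats, a line of type 2 diabetes bred at Davis in which diabetes arises spontaneously on standard chow and for which no genetically similar control line exists. Distal ileum and proximal colon of 18 rats were sequenced, giving 36 libraries with 6 rats in each of 3 groups. The nondiabetic rats (ND) were 70 days old. The diabetic groups, titled RD and LD in the labels, are called D1M and D3M here. The D1M rats were 168 to 172 days old and had been diabetic for 22 to 23 days, and the D3M rats were 172 to 173 days old with 88 to 116 days of untreated diabetes. Because ND rats were younger than both diabetic groups, age and diabetes cannot be told apart in any comparison with ND. D1M and D3M rats were close in age and differed in the duration of diabetes. The D3M rats also had an earlier onset, lower body weight and a higher mean fasting glucose. These differences cannot be told apart from duration in D3M relative to D1M.

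In the gut wall, B cells gather in lymphoid follicles, such as the Peyer's patches of the ileum and the smaller isolated follicles of both tissues. Stromal cells of the follicle release Cxcl13, which draws B cells that carry its receptor Cxcr5, and the overlying epithelium releases Ccl20 and contains M cells, which take up bacteria through receptors such as Gp2. Activated B cells can become plasma cells, a switch in which Prdm1 and Irf4 act, and intestinal plasma cells release immunoglobulin A joined by the J chain (Jchain), which Pigr carries across the epithelium. Follicles are scattered along the gut, and the tissue taken for RNA was a short segment of whole wall.

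Libraries held 12279059 to 21510043 counted reads in the ileum and 10024041 to 18299050 in the colon. All levels below are CPM, the reads of a gene relative to the size of its library, scaled within each tissue by the trimmed mean of M values (TMM) unless a common scale is named. They are not corrected for transcript length, so levels are compared between libraries and not between genes. Markers of the opposite tissue stood out in 3 libraries. Fabp6, an ileal bile acid binding protein, was at 8706 CPM in the colon of ND rat K4028 and at most 21.3 CPM in the other colon libraries. Car1, a colonic carbonic anhydrase, was at 3616 CPM in the ileum of ND rat K4040 and at 1345 CPM in that of D3M rat P762, and at most 130.4 CPM in the other ileum libraries. Libraries had been run on 3 flow cells, unevenly over the groups: in the ileum no D3M library was on flow cell 2, and in the colon no D3M library was on flow cell 1.

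Most B cell genes were much higher in a few libraries than in the rest. Cd79a, a signalling chain of the B cell receptor encoded at chr1:81763614-81767980 of rn6 (plus strand), was at 145 CPM in the ileum of ND rat K4047, 144 in ND K4028, 97.7 in D1M K3986, 81.7 in D1M K3990, 73.0 in ND K4038 and 49.5 in D3M K3959. The next ileum library was at 6.83 CPM, and the lowest of the remaining 12 was at 0.835 CPM. In the colon Cd79a was at 148 CPM in D1M rat K3989, 134 in ND K4048, 117 in ND K4047, 52.8 in D3M P762 and 23.3 in D3M K3977, and the other 13 libraries lay between 0.713 and 5.37 CPM. Each group therefore had libraries of both kinds in both tissues. By flow cell the high libraries were uneven. In the ileum K4047, K3986 and K4038 were on flow cell 2, K4028 and K3990 on flow cell 3 and K3959 on flow cell 1. In the colon K3989 was on flow cell 1 and the other high libraries on flow cell 2. Whether flow cell had a part in this pattern was not tested. Rat K4047 was the only animal whose ileum and colon were both among these high libraries. In bulk tissue, fewer B cells and less RNA per B cell cannot be told apart.

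**Figure D1:**
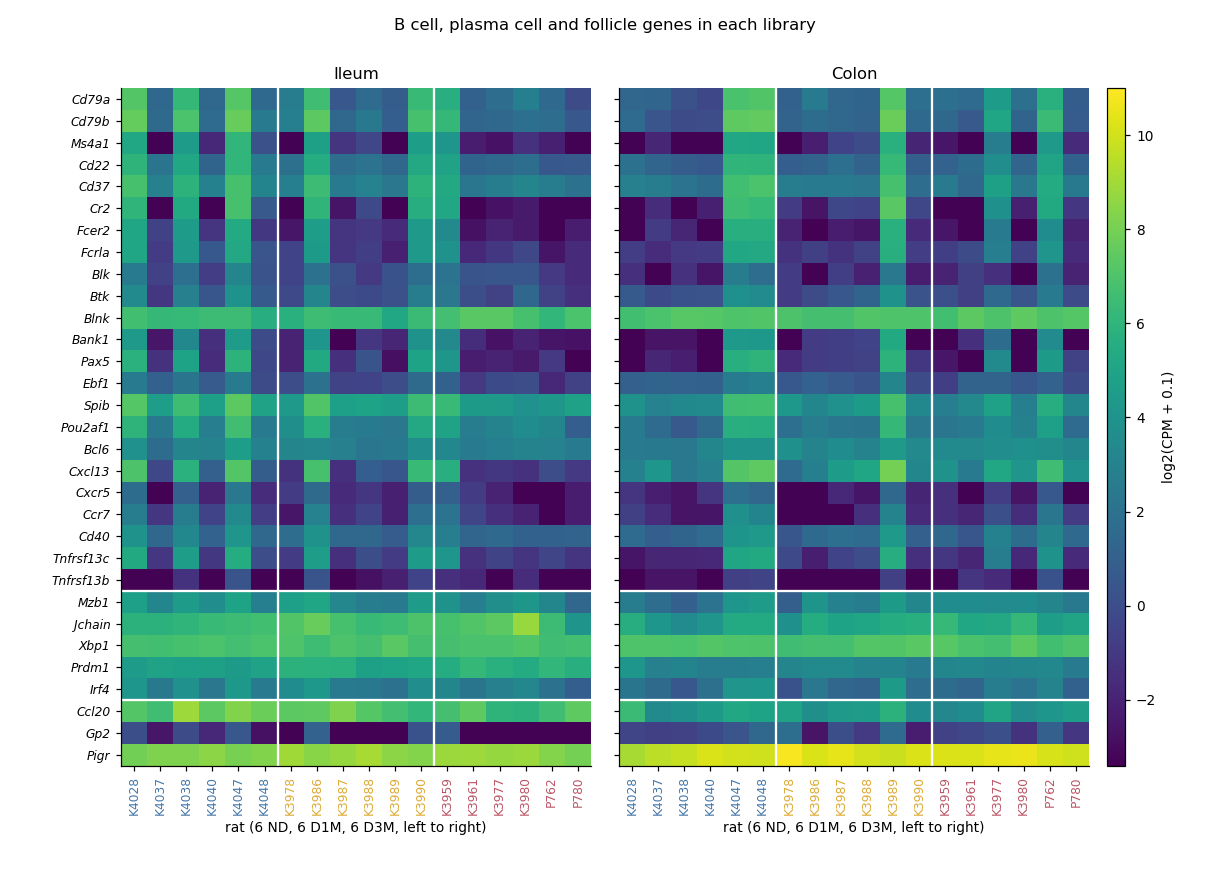
Level of each member with reads (rows, colour gives log2 of CPM plus 0.1) in the 18 ileum and 18 colon libraries (columns, named by rat, with ND, D1M and D3M from left to right between the white lines). The 6 ileum and 5 colon columns with high Cd79a are also bright for most B cell genes, above the first horizontal line, while Blnk, Xbp1 and Pigr are near even across a tissue.

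The other B cell genes were high in the same libraries. In the ileum, 18 of the 22 other B cell genes with counts had their 6 highest values in the 6 libraries named above. In the colon 17 of 22 had their 5 highest values in the 5 named. The share of all genes with either pattern was not counted. Cr2, the complement receptor of mature B cells and follicular dendritic cells, ran from 37.5 to 110.2 CPM in those ileum libraries and was at most 1.45 CPM in the other 12, of which several had no read. Pax5, the transcription factor that holds B cells to their fate, was at 18.9 CPM or more in the 6 ileum libraries and at most 1.16 CPM elsewhere, and in the colon at 11.3 CPM or more against at most 0.577 CPM. Cxcl13, the chemokine that attracts B cells into follicles, was at 49.0 to 143 CPM in the 6 ileum libraries and at most 1.95 CPM in the rest. In the colon Cxcl13 was also measurable outside the 5 high libraries, where it reached 33.9 CPM against a lowest value of 36.7 CPM inside them. The same libraries were thus the highest for each of these genes, with a wide gap to the rest in the ileum and a narrow one for Cxcl13 in the colon.

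The receptors and surface proteins behaved alike. Ms4a1 (CD20), Cd22, Cd37, Fcer2, Fcrla, Tnfrsf13c (the receptor for the survival factor BAFF), Cd40, Cxcr5 and Ccr7 all had their highest values in the named libraries in both tissues. Ms4a1 was at 17.7 to 68.1 CPM in the 6 ileum libraries and at most 1.01 CPM in the others, and at 6.37 to 52.7 CPM in the 5 colon libraries and at most 0.825 CPM in the others. Fcer2, the low affinity receptor for immunoglobulin E, was at 11.1 to 42.0 CPM against at most 0.579 CPM in the ileum, and at 5.67 to 53.4 CPM against at most 0.462 CPM in the colon. Tnfrsf13c was at 17.9 to 45.8 CPM against at most 0.959 CPM in the ileum, and at 6.09 to 47.3 CPM against at most 0.894 CPM in the colon. These receptors were near absent outside the high libraries. Cd37, a tetraspanin that other leukocytes carry too, kept a higher floor, with 40.8 to 114 CPM against 3.95 to 8.72 CPM in the ileum and 27.1 to 122 CPM against at most 7.27 CPM in the colon. Cd40, the receptor for T cell help, was at 6.62 to 17.0 CPM against at most 3.26 CPM in the ileum and at 7.48 to 20.8 CPM against at most 3.49 CPM in the colon. The chemokine receptors Cxcr5 and Ccr7 were low throughout, with highest values of 5.10 and 13.9 CPM. The signalling genes Btk and Bank1 also had their highest values in the named libraries, as did Spib and Pou2af1, transcription factors that act in B cells. Spib, which is also a marker of follicle epithelium and M cells, differed from the others in its lower bound. It was at 81.0 to 166 CPM in the 6 ileum libraries, but still at 14.6 to 31.0 CPM in the other 12. Which cells gave its reads was not tested. Tnfrsf13b, the receptor TACI, was at most 1.19 CPM in any library.

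Some B cell genes did not keep to this order. Blnk, an adaptor below the B cell receptor, was at 36.7 to 160.3 CPM in the ileum, and only 2 of its 6 highest ileum values were in the libraries with high Cd79a; in the colon it was at 101 to 169 CPM, with 0 of its 5 highest values there. Bcl6, the transcription factor of germinal centre B cells, shared 5 of 6 libraries in the ileum and 3 of 5 in the colon. Ebf1, an early B cell transcription factor, shared 5 of 6 and 4 of 5, with levels of 0.196 to 8.94 CPM over both tissues. The Src family kinase Blk shared all 6 ileum libraries but 4 of 5 in the colon, where it was at most 6.38 CPM.

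**Figure D2:**
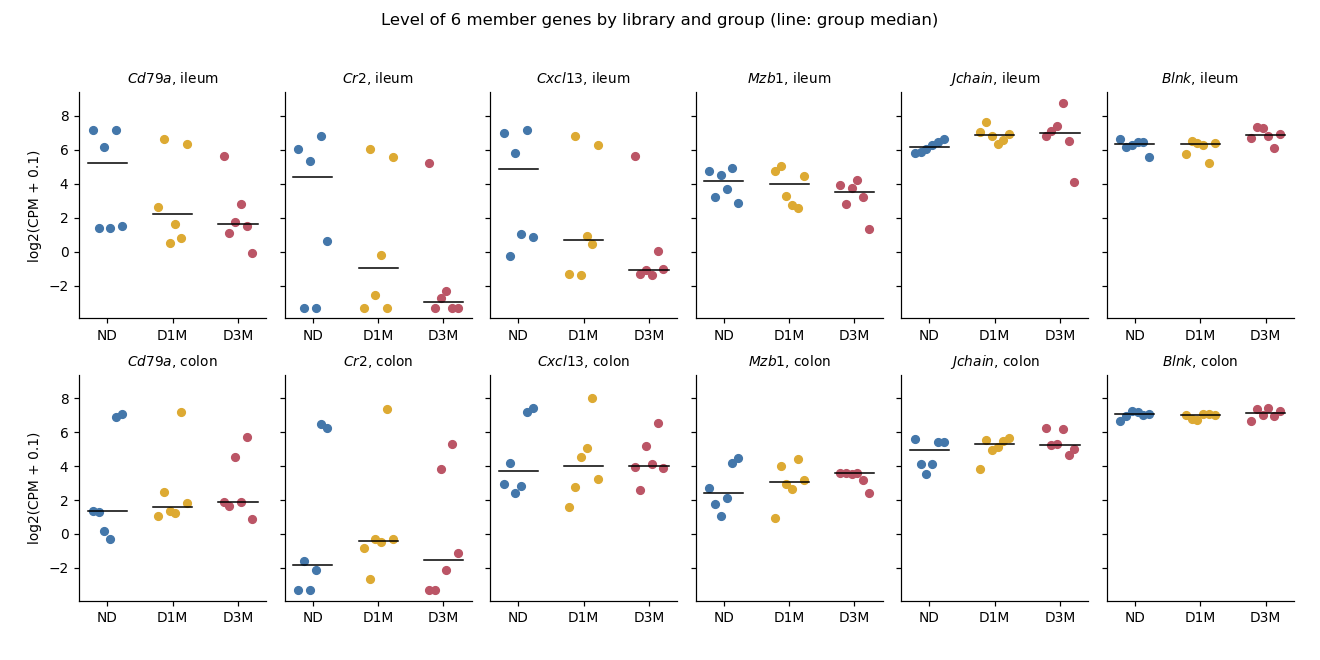
Log2 of CPM plus 0.1 for Cd79a, Cr2, Cxcl13, Mzb1, Jchain and Blnk by group, ileum in the upper and colon in the lower row; each point is 1 library and each line a group median. Cd79a and Cr2 have points far apart within every group, and the points of Blnk lie close together.

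Among libraries in which Cd79a was at 10 CPM or more, some B cell genes kept near fixed proportions to it and others did not. These are ratios of raw counts, read between libraries only. Over the 6 ileum libraries Cd79a itself spanned 2.92-fold, whereas the reads of Cd79b, its partner chain, per read of Cd79a ran from 1.35 to 1.70. Over the 5 colon libraries Cd79a spanned 6.36-fold and that ratio ran from 1.39 to 1.59. Pax5 gave 0.378 to 0.430 reads per read of Cd79a in the ileum and 0.408 to 0.483 in the colon. Cxcl13 gave 0.762 to 1.14 in the ileum and 1.22 to 1.78 in the colon, and Spib 1.02 to 1.63 in the ileum and 0.731 to 1.21 in the colon. The ranges of Cd79b and Pax5 overlapped between the tissues, and those of Cxcl13 did not. Fcrla and Tnfrsf13c varied 1.36-fold and 1.42-fold against Cd79a in the ileum and 1.20-fold and 1.22-fold in the colon. Other B cell genes varied more. In the colon the ratio spanned 6.00-fold for Blk, 4.56-fold for Bcl6, 2.82-fold for Ccr7, 2.36-fold for Ebf1, 2.34-fold for Cd40 and 2.05-fold for Bank1. For each of these genes D3M rat K3977 gave the lowest or the highest colon ratio. That library had the fewest Cd79a reads of the 5, at 333, and its Blk ratio of 0.0120 rests on few reads. In the ileum the ratio spanned 2.19-fold for Blk, 2.00-fold for Bcl6, 1.99-fold for Ccr7 and 1.89-fold for Ms4a1. These spans are not far below that of Cd79a itself. Blnk gave 0.610 to 2.08 in the ileum and 0.898 to 5.50 in the colon, and the epithelial receptor Pigr varied 5.54-fold and 10.0-fold against Cd79a.

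**Figure D3:**
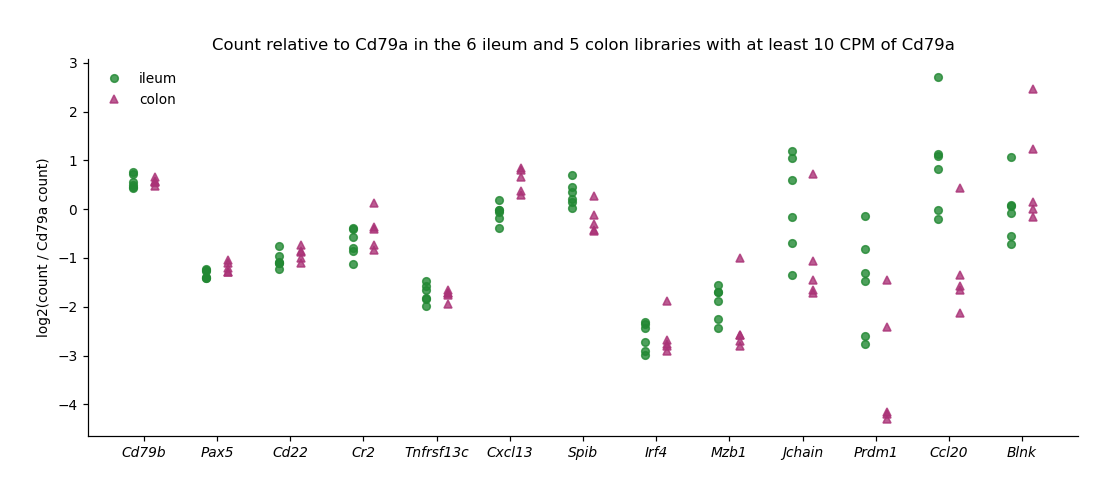
Log2 of a member's reads per read of Cd79a in the libraries with Cd79a of 10 CPM or more, 6 from the ileum (circles) and 5 from the colon (triangles); each point is 1 library. The points of Cd79b and Pax5 lie close together, and those of Jchain, Prdm1, Ccl20 and Blnk are spread widely.

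The proximal sequences of 4 members are printed to show what these genes hold before their annotated starts. They are Cd79a, by which the libraries were ordered, Cr2, a follicle gene without a read in several libraries, Blnk, the B cell gene that did not follow them, and Prdm1, whose difference between groups is given further on. The 250 bases before each start come from RefSeq on build GRCr8, at chr1:89621210-89621459 (plus strand), chr13:109244507-109244756 (minus strand), chr1:249770534-249770783 (minus strand) and chr20:49564089-49564338 (minus strand), and are written 5′ to 3′ on the gene's strand. Capitals mark matches on either strand to the octamer ATTTGCAT, to the ETS purine box GAGGAA or to the E-box CAGGTG.
Cd79a: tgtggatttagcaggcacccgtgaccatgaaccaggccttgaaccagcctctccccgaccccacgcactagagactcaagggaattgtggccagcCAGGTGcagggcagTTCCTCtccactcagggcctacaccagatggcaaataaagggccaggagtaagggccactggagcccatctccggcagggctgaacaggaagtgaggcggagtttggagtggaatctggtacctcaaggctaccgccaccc
Cr2: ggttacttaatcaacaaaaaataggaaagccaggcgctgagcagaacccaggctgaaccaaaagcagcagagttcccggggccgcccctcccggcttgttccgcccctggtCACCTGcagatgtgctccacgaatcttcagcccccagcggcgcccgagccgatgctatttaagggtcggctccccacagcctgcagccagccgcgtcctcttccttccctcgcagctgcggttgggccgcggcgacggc
Blnk: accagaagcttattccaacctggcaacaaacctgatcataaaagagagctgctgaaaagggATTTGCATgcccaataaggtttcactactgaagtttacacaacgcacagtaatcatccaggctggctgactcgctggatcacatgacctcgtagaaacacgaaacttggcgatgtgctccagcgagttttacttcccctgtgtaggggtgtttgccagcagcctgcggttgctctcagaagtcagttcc
Prdm1: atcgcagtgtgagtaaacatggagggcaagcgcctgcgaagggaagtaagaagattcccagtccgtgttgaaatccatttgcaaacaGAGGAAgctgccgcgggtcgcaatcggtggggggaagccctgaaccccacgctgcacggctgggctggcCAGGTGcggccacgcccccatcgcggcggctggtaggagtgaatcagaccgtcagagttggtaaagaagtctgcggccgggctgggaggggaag

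Of the 33 members, 23 matched a RefSeq window. The octamer, bound by Oct factors that work with Pou2af1, was found before Blnk and Vpreb3 only, against 1.56% of all 33469 windows. The purine box, a core of sites for PU.1 and Spib, was found before 9 of the 23 members, including Cd79a and Prdm1, against 23.3% of all windows. The E-box was found before 8 of 23, including Cd79a, Cr2 and Prdm1, against 15.9%. A palindrome of EBF half-sites, CCCNNGGG, was found before Bank1, Spib, Bcl6 and Xbp1, against 10.8%, and the core of the unfolded protein response element, TGACGTGG, before none of the 23, against 0.52%. A match describes letters in this window and not a bound site.

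The plasma cell genes were measured in all libraries and fell into separate patterns. Irf4, which acts in both activated B cells and plasma cells, followed the follicle genes, with 5 of its 6 highest ileum values and all 5 of its highest colon values in the libraries with high Cd79a. Mzb1, a chaperone of antibody secreting cells, shared 5 of 6 and 3 of 5. Jchain shared 2 of 6 and 0 of 5, Prdm1 shared 1 of 6 and 1 of 5, and Xbp1, the transcription factor of the secretory response, shared 0 in either tissue. Xbp1 lay between 92.8 and 158 CPM in the ileum and between 94.4 and 163 CPM in the colon. Jchain ranged from 16.8 CPM in the ileum of D3M rat P780 to 439 CPM in that of D3M rat K3980, both values outside the range of the other 16 ileum libraries, and from 11.6 to 74.9 CPM in the colon.

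Of the 3 follicle epithelium genes, Gp2 went with Cd79a in the ileum. Its 6 highest values, 0.828 to 2.06 CPM, were in the 6 libraries with high Cd79a, and it was at most 0.190 CPM elsewhere. In the colon 4 of its 5 highest values were in the high libraries, but the highest, 3.34 CPM, was in D1M rat K3978, whose Cd79a was at 1.97 CPM. Such levels rest on few reads. Ccl20 shared 2 of 6 and 4 of 5, and Pigr, which all intestinal epithelium makes, shared 1 of 6 and 1 of 5.

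Genes outside the set, from lists of related functions, were examined in the same way, again without a share over all genes. Of 19 other genes of B cell receptor signalling, 12 had their 6 highest ileum values in the same 6 libraries and 10 their 5 highest colon values in the same 5. Of 15 genes of follicle stroma, lymphocyte homing and germinal centres measured in the ileum, 8 did so, among them Ccl19, Ccl21, Glycam1, Madcam1, Cxcr4 and Il21r, and 6 of 12 did so in the colon. Of 12 T cell markers, 6 did so in the ileum, among them Cd3d and Cd3e, and 3 in the colon. Of the markers of smooth muscle, epithelium and adipocytes and of the plasma cell secretory genes, 0 did so in either tissue. The summed level of the 7 epithelial markers was lowest in the 3 colons with the highest Cd79a, at 14427 CPM in K3989, 15308 CPM in K4047 and 16597 CPM in K4048, against 17516 CPM or more in the other colons. In the ileum it was lowest in K4047 at 17173 CPM, K4028 at 18539 CPM and K4038 at 20094 CPM, whereas D3M rat K3959 was at 25262 CPM. These 3 lowest ilea were all from ND rats, and group medians were 21349, 23007 and 26625 CPM in ND, D1M and D3M. The D1M ilea K3986 and K3990 had more Cd79a than K4038, but no D1M ileum was below 21457 CPM. Cd79a level and group are thus mixed in the ileum. The part of the epithelial differences in the B cell levels was not tested.

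Most B cell genes varied between libraries of 1 group far more than most transcripts. The biological coefficient of variation, which is the spread beyond counting error once group and flow cell are accounted for, had a median of 1.34 over the 22 B cell genes tested in the ileum and 1.07 over the 16 tested in the colon, against 0.186 and 0.192 over all genes tested. In the ileum 20 of the 22, and in the colon 14 of the 16, were among the 5% of genes with the largest spread. The median was 0.548 over the 5 plasma cell genes in the ileum and 0.467 in the colon. Some members did not stand out: Xbp1 was at percentile 20.6 of all genes in the ileum and 44.3 in the colon, Blnk at 31.9 in the colon and Pigr at 48.6 in the ileum. A filter on low counts kept 30 members for testing in the ileum and 24 in the colon. Fcer2, Blk, Bank1, Pax5, Cxcr5 and Ccr7 did not pass it in the colon, Tnfrsf13b passed in neither tissue, and those that passed at low medians did so through the high libraries.

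Groups were then compared within each tissue with edgeR's quasi-likelihood test, with flow cell as a term, and transcripts with a false discovery rate (FDR, Benjamini-Hochberg over all genes tested) below 0.05 were called. In the ileum of D3M relative to ND, 1 of 30 members was called, against 12.5% of all genes tested. It was Prdm1 (rn6 chr20:49464919-49556518, minus strand), the transcription factor Blimp-1 that ends the B cell programme in plasma cells and that intestinal epithelium also expresses. The 6 ND ilea held 21.4 to 30.0 CPM of Prdm1 and had a median of 26.8. The D1M ilea held 27.7 to 57.4 CPM around a median of 42.8, and the D3M ilea 43.7 to 72.3 CPM around a median of 52.1. The D3M range lay above the ND range without overlap, and the D1M range overlapped both. Prdm1 was higher in D3M relative to ND by a log2 fold change of 1.19 (SE 0.225, edgeR FDR 0.00480). Relative to ND, D1M differed by 0.76 (SE 0.204, edgeR FDR 0.366), and D3M relative to D1M by 0.44 (SE 0.197, edgeR FDR 0.238), neither of which was called. Among the 32 members with a row, Prdm1 was the only one with ND and D3M values that did not overlap in the ileum, against 6.4% of all genes tested, so 1 such member is no more than the background share.

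The Prdm1 difference was present within each flow cell that held both groups. On flow cell 1 the single ND ileum was at 29.2 CPM and the 4 D3M ilea at 43.7 to 72.3 CPM, and on flow cell 3 the 2 ND ilea were at 23.9 and 27.4 CPM and the 2 D3M ilea at 50.0 and 71.3 CPM. Without the ileum of K4040 and the colon of K4028 the log2 fold change was 1.22, and it stayed called whichever library was left out. Epithelial markers moved in the same direction. The summed level of 7 of them was 17173 to 24019 CPM in ND and 24501 to 32553 CPM in D3M ilea, and 2 of the 7 were called higher, Vil1 (log2 fold change 0.70, edgeR FDR 0.00450) and Krt20 (0.58, edgeR FDR 0.0357). Their part in the Prdm1 result was not tested. 

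**Figure D4:**
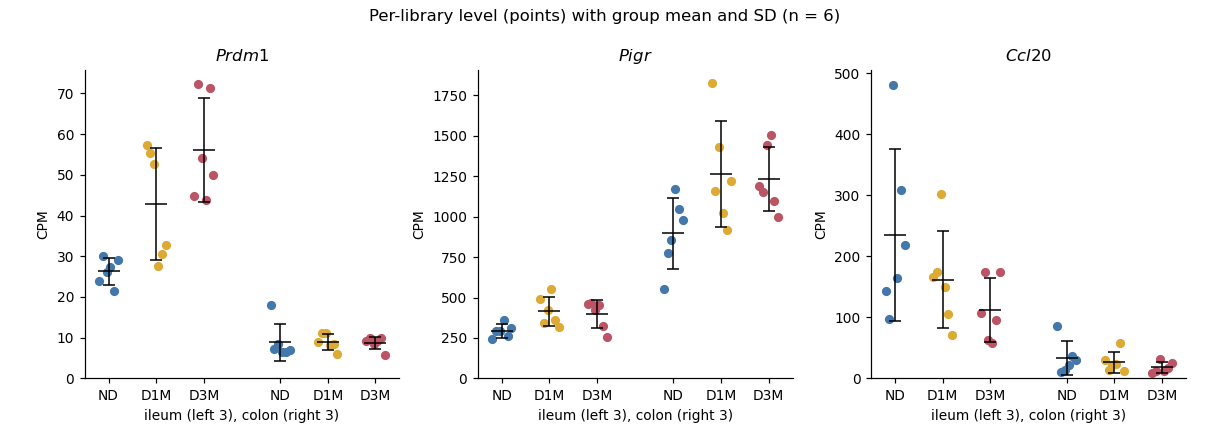
CPM of Prdm1, Pigr and Ccl20 in each library by group, ileum and colon; each point is 1 library and the lines are the mean and SD of the 6 libraries of a group. Prdm1 in D3M ilea (43.7 to 72.3 CPM) lies above all ND ilea (21.4 to 30.0 CPM), and the colon groups overlap.

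In the colon Prdm1 was at 6.38 to 17.96 CPM in ND, 6.01 to 11.3 in D1M and 5.84 to 9.89 in D3M. The highest of these was the ND rat K4028, whose colon library also held the ileal marker Fabp6. D3M relative to ND differed by 0.01 (SE 0.238, edgeR FDR 0.993). The ileal change minus the colonic change was 1.23 (SE 0.336, edgeR FDR 0.0542), so that the difference between tissues narrowly missed the threshold. By that test 0 of 30 members were called, against 1.56% of all genes tested. Its unadjusted p was below 0.05 for 1 member and for 16.8% of all genes. DESeq2 called 1, Prdm1, and limma voom called 0.

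By edgeR with the flow cell term, no B cell gene was called between groups in either tissue. Blnk was called in the ileum by other tools and Ebf1 without that term. Ileal Cd79a spanned 2.52 to 145 CPM in ND rats, 1.32 to 97.7 CPM in D1M rats and 0.835 to 49.5 CPM in D3M rats, with group medians of 37.9, 4.62 and 3.01 CPM. All 3 groups overlapped over most of their range. The log2 fold change of D3M relative to ND was 0.49 with a 95% interval of -3.64 to 4.61, and that of Cr2 was 1.15 with an interval of -4.90 to 7.20, so that changes of several doublings in either direction were not detectable. Over the 22 B cell genes tested in the ileum the median log2 fold change of D3M relative to ND was -0.06, with 11 positive and 11 negative, against a median of -0.08 over all genes. Without the flow cell term it was -2.18. No D3M ileum was on flow cell 2, where those of the ND rats K4047 and K4038 were run. Leaving out the ileum of D3M rat K3959, the only high library of that group, gave -2.04, and leaving out that of ND rat K4028 gave 0.86.

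For the ileum of D1M relative to ND, edgeR called 0 of 30 members, against 0.0154% of all genes tested. Its unadjusted p was below 0.05 for 2 members, Prdm1 and Pigr, and for 8.34% of all genes. DESeq2 and limma voom also called 0. All 22 B cell genes had a negative fold change, with a median of -0.56 and FDR values of 0.798 or more. With limma voom the median was 0.56, and it was -1.56 without the ileum of D1M rat K3990 and 0.88 without that of ND rat K4028, so its direction was not stable. For the ileum of D3M relative to D1M, edgeR called 0 of 30, against 2.22% of all genes. Its unadjusted p was below 0.05 for 2 members, Prdm1 and Blnk, and for 19.1% of all genes. DESeq2 and limma voom each called 1, Blnk.

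Blnk was the gene of the B cell list nearest to a difference between groups, but its level did not follow Cd79a. Only 2 of its 6 highest ileum values and 0 of its 5 highest colon values were in libraries with high Cd79a. Which cells gave the reads of Blnk was not tested. Its ileal level spanned 47.8 to 98.3 CPM in ND rats, 36.7 to 92.9 CPM in D1M rats and 69.4 to 160.3 CPM in D3M rats, with group medians of 82.6, 81.1 and 118 CPM. The highest 5 of 18 values were in D3M, but the sixth D3M library lay within the other groups. The log2 fold change was 0.74 relative to ND (SE 0.299, edgeR FDR 0.114) and 0.80 relative to D1M (edgeR FDR 0.106). DESeq2 and limma voom called both differences and edgeR neither. In the colon the groups overlapped, with medians of 132, 128 and 139 CPM in ND, D1M and D3M.

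In the colon, edgeR called 0 of 24 members in each comparison. For D3M relative to ND this stood against 0.0155% of all genes tested. The unadjusted p of edgeR was below 0.05 for 0 members and for 10% of all genes. For D1M relative to ND 0% of all genes were called, and that p was below 0.05 for 1 member, Pigr, and 4.66% of all genes. For D3M relative to D1M 0% were called, and that p was below 0.05 for 1 member, Blnk, and 5.28% of all genes. DESeq2 and limma voom called 0 in all 3. Cd79a was at 0.713 to 134 CPM in ND, 1.97 to 148 in D1M and 1.73 to 52.8 in D3M colons, with medians of 2.43, 2.96 and 3.60 CPM. The median log2 fold change of the 16 B cell genes for D3M relative to ND was -1.08, with 14 negative, against -0.01 over all genes. Without the libraries of flow cell 2, which held 4 of the 5 colons with high Cd79a, the median was 0.78.

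**Figure D5:**
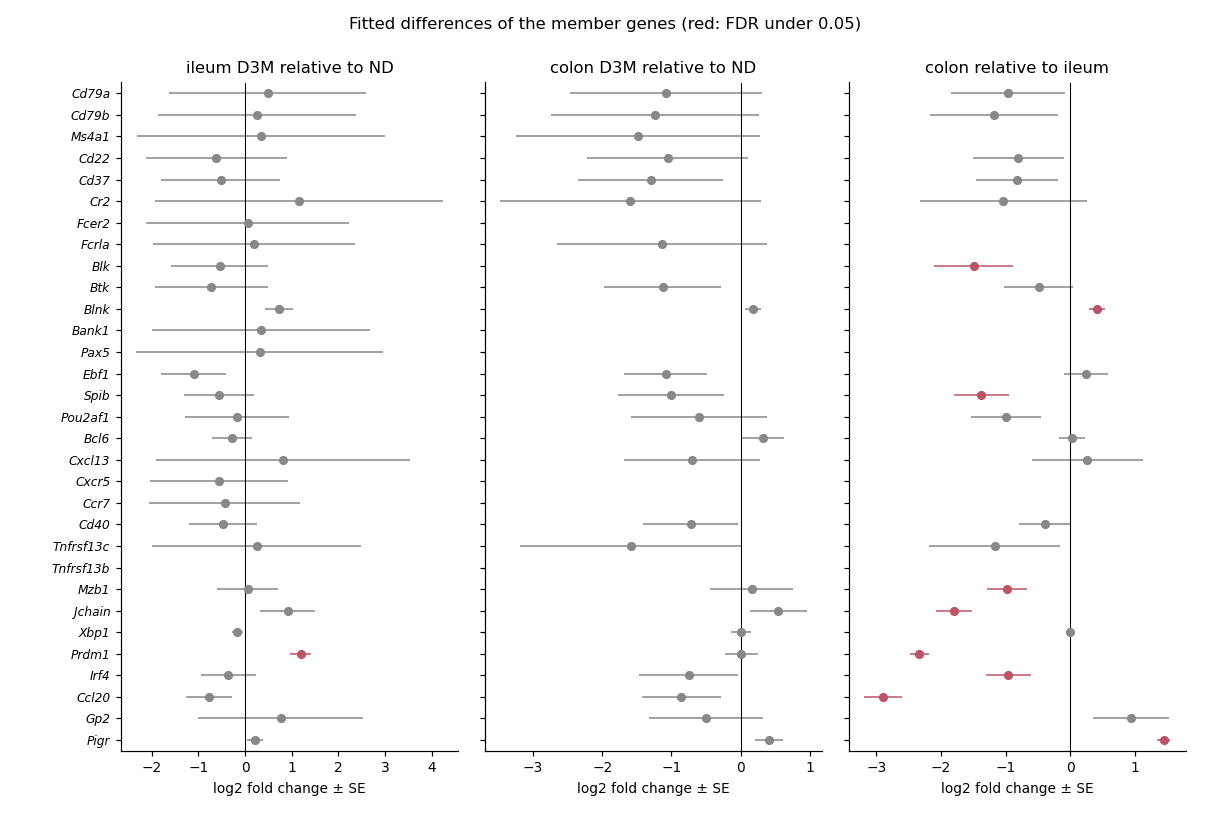
Log2 fold change from edgeR (points) with its SE (bars) of each tested member for the ileum and the colon of D3M relative to ND and for colon relative to ileum; red marks an FDR under 0.05. Most B cell genes have long bars, Prdm1 is the only red point in the ileum (1.19), the colon of D3M relative to ND has none, and 9 points are red in the third panel.

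Other plasma cell and epithelial genes differed between groups by less than the test could separate. Jchain was at 57.0 to 101 CPM in ND, 80.9 to 201 in D1M and 16.8 to 439 in D3M ilea, and the fold change of D3M relative to ND was 0.91 on the log2 scale (SE 0.591, edgeR FDR 0.319). Xbp1 medians were 112, 116 and 112 CPM in the ilea of the 3 groups. Mzb1 medians were 17.7, 15.9 and 11.1 CPM in ND, D1M and D3M ilea, and those of Irf4 were 10.3, 8.9 and 5.8 CPM. The log2 fold changes of D3M relative to ND were 0.05 for Mzb1 (edgeR FDR 0.964) and -0.36 for Irf4 (edgeR FDR 0.717). Over the 5 plasma cell genes, Prdm1 included, the median was 0.05. Pigr was at 242 to 363 CPM in ND, 316 to 551 in D1M and 256 to 468 in D3M ilea, with a log2 fold change of D1M relative to ND of 0.36 (SE 0.154, edgeR FDR 0.562). In the colon Pigr was at 556 to 1170 CPM in ND, 915 to 1825 in D1M and 999 to 1503 in D3M, with log2 fold changes relative to ND of 0.48 (edgeR FDR 0.952) and 0.41 (edgeR FDR 0.514). Thus Pigr medians were lowest in ND in both tissues, without a called difference. Ccl20 was at 96.7 to 481 CPM in ND and 57.2 to 175 in D3M ilea, with a log2 fold change of -0.78 (SE 0.491, edgeR FDR 0.305).

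The related lists were read for the ileum of D3M relative to ND in the same way, against the 12.5% of all genes tested that were called. Among 19 other B cell receptor signalling genes 2 were higher, Pik3ap1 (0.57, edgeR FDR 0.0144) and Bcl10 (0.51, edgeR FDR 0.0139), and the median over the list was -0.38. Both genes are also used by cells other than B cells. Among 15 stroma, homing and germinal centre genes 1 was higher, Tnfsf13b (0.85, edgeR FDR 0.0202), which encodes the survival factor BAFF. Among 15 plasma cell secretory genes 3 were higher, Sdc1 (0.70, edgeR FDR 0.00366), Ell2 and Edem1. Sdc1 encodes syndecan-1, which both plasma cells and gut epithelium carry, and Tnfrsf17, the plasma cell receptor BCMA, was not called. Among 7 other follicle epithelium genes Relb was higher (0.69, edgeR FDR 0.00276) and Ctsh lower (-0.30, edgeR FDR 0.0263). Of 12 T cell markers 0 were called by edgeR. Its unadjusted p was below 0.05 for 0 of them, against 29.7% of all genes. All 12 fold changes were negative (median -0.38). Of the related genes, Sdc1 (0.81, edgeR FDR 0.0376) and Relb (0.97, edgeR FDR 0.0468) were called for a larger change in ileum than in colon.

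The tissues were then set against each other in a model of the 36 libraries that also held group and flow cell. Of 23 members tested, 9 were called, 2 higher and 7 lower in colon, against 74.7% of all genes tested, so the share of members called was below that of the whole table. On the common 36-library scale, Pigr was at 530.8 to 1721 CPM in colon and 262 to 586 CPM in ileum, and was higher in colon by 1.45 on the log2 scale (SE 0.104, edgeR FDR 2.63e-14). Blnk was higher by 0.41 (edgeR FDR 0.00261). Prdm1 was at 5.55 to 17.2 CPM in colon and 23.7 to 77.4 CPM in ileum, without overlap, with a log2 fold change of -2.33 (SE 0.150, edgeR FDR 2.14e-15). Ccl20 was at 9.15 to 82.3 CPM in colon and 60.7 to 520.3 CPM in ileum (log2 fold change -2.90, SE 0.292, edgeR FDR 1.78e-10). The highest colon values of both Prdm1 and Ccl20 were those of ND rat K4028, the library with ileal Fabp6, and without it and the ileum of K4040 the log2 fold changes were -2.47 and -3.16. Jchain was also lower in colon (-1.80, edgeR FDR 9.02e-07), as were Spib (-1.37), Blk (-1.49, edgeR FDR 0.0295), Mzb1 (-0.98) and Irf4 (-0.96). The call of Blk was lost in 6 of 47 alternatives, 4 of which left out a single library (the ileum of K3986, K3990, K3959 or K4047, with FDR of up to 0.0727), and those of Mzb1 and Irf4 were lost without flow cell 2. Xbp1 differed by 0.01 (SE 0.0729, 95% interval -0.14 to 0.15).

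Of the 15 B cell genes tested between tissues, only Blnk, Spib and Blk were called. Ms4a1, Fcer2, Fcrla, Bank1, Pax5, Cxcr5, Ccr7 and Tnfrsf13b did not pass the filter for this comparison and were not tested. Cd79a had a median of 3.35 CPM in ileum and 3.11 CPM in colon on the common scale, with a log2 fold change of -0.96 and an interval of -2.70 to 0.78. Without the colon of D1M rat K3989, the library with the highest colonic Cd79a, 16 members were called, of which 14 were lower in colon, including Cd79a, Cd79b, Cd22 and Cd37. The call of these genes therefore turned on 1 library. Without flow cell 2, 6 members were called. Markers of other cell types were also called between the tissues. Of 12 T cell markers 8 were lower in colon and 1 higher, and of 7 epithelial markers 6 were lower and 1 higher. All 7 of 7 smooth muscle and 3 of 4 adipocyte markers were higher. Of all genes tested, 38% were called higher in colon and 36.7% lower. The part of tissue composition in the member results was not tested.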

How the data were processed

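Distal ileum and proximal colon of the same 18 rats were profiled by directional mRNA sequencing. Per the labels and the study's methods, reads were aligned to rat genome rn6 with STAR and counted per gene; the STAR version and the strand setting of the counting are not given in the sources used here. The authors deposited raw counts per gene, which are the values used. The same table holds 36 columns of standard deviations, all 0, and a second deposited table of log2 values was not used. Members were matched by symbol.

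Groups came from the sample titles, which give ND, RD and LD. RD is named D1M and LD is named D3M here, after the study's methods and, for LD, the group field of the labels. Genes were filtered with filterByExpr by group, scaled by TMM and tested with edgeR 4.0.16 (R 4.3.3) quasi-likelihood models with robust estimation, separately in each tissue over 18 libraries with flow cell as a covariate; SE was the absolute log2 fold change divided by the square root of F, and calls used FDR below 0.05 over all genes. Colon and ileum, and the difference of the D3M change between tissues, were tested over 36 libraries. Each rat gave 1 library per tissue per the labels. The correlation of the paired libraries' deviations from their group means over 13697 genes ran from -0.564 to 0.767 (median -0.0221), so rat was used as a replicate block in an alternative. DESeq2 1.42.0, limma 3.58.1 voom, other filters, scaling and leaving out each library were further alternatives. The models were tested on simulated counts with the same small spread for every gene and no flow cell effect. That test does not cover genes as variable as most of the B cell genes. The members, the related lists and the tests were chosen with earlier results of these data known, and named genes were all members plus called genes of the related lists. Separate animals were the replicates, and counts limit precision: 3 reads were taken as the floor of a library. Promoter sequences are RefSeq GRCr8 and were not joined to rn6 coordinates.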

Additional observations from a re-analysis of the deposited data

Results flagged for a closer look

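Within each tissue and group of 6 libraries, the gap between the extreme library and its neighbour was compared with Dixon's 95% critical value on log2 of CPM plus 0.1. Of 162 such groups 27, or 16.7%, passed it, against a nominal 5% for independent, normally distributed values. The 27 lay in 4 libraries, so they are not independent of each other. Members also passed the filter in part through the high libraries, and the share over all genes was not counted. No conclusion is drawn from the excess over 5%.

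The colon of D1M rat K3989 was the highest of its group by this measure for 11 follicle genes: Cd79a at 148 CPM (next 5.37), Cd79b at 220.3 (next 3.17), Ms4a1 at 52.7 (next 0.825), Cd22 at 74.5 (next 3.49), Cd37 at 111 (next 6.37), Cr2 at 162 (next 0.718), Fcrla at 50.9 (next 0.550), Spib at 111 (next 21.3), Pou2af1 at 73.0 (next 6.35), Cd40 at 20.3 (next 3.49) and Tnfrsf13c at 47.3 CPM (next 0.894). It was the only D1M colon with high B cell transcripts.

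The ileum of D3M rat K3959 stood apart in the same way for 13 genes: Cd79b at 72.6 CPM (next 3.58), Ms4a1 at 17.7 (next 0.291), Cd22 at 29.3 (next 3.34), Cd37 at 40.8 (next 8.72), Cr2 at 37.5 (next 0.0968), Fcer2 at 11.1 (next 0.159), Fcrla at 15.02 (next 0.678), Bank1 at 10.4 (next 0.2504), Pax5 at 18.9 (next 0.391), Cxcl13 at 49.0 (next 0.913), Cd40 at 6.62 (next 2.81), Tnfrsf13c at 17.9 (next 0.652) and Gp2 at 1.61 CPM (next 0). Gp2 had no read in the other D3M ilea.

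The colon of D3M rat P780 was the lowest of its group for Mzb1 at 5.26 CPM (next 8.88) and for Prdm1 at 5.84 CPM (next 8.53). The colon of ND rat K4028, which held Fabp6, was the highest of its group for Prdm1 at 17.96 CPM (next 8.46).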

How the results depend on the processing

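The call of Prdm1 in the ileum of D3M relative to ND was kept under all 28 alternatives, with log2 fold changes of 1.08 to 1.37 and FDR of 1.54e-05 to 0.0361. The number of members called there was 2 with DESeq2 and limma voom (Prdm1, Blnk) and 2 without the flow cell term (Prdm1 higher, Ebf1 lower), and 1 to 2 when single libraries were left out. For the ileum of D3M relative to D1M it was 1 with DESeq2 and limma voom. For the difference of the D3M change between tissues it was 1 (Prdm1) with DESeq2 and without the flow cell term, and 0 to 1 with single libraries left out. For colon relative to ileum it was 15 with limma voom, 6 without flow cell 2, and 8 to 16 with single libraries left out. The other 4 comparisons called 0 members under every alternative run. With rat as a replicate block, 10 members (adding Pou2af1) were called between tissues and 0 in the difference of changes, so the pairing changed no other call. That block without the flow cell term, added after seeing the data, gave 9 and 0. Between tissues, Blk lost its call in 6 of 47 alternatives, and Irf4 and Mzb1 in 1 each (without flow cell 2).

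Median log2 fold changes of the B cell genes moved widely and carry no test. In the difference between tissues the median was 1.29, against -0.76 without the flow cell term, -1.42 without flow cell 2 and -1.84 with the replicate block and no flow cell term. For colon D1M relative to ND it was -1.64 with limma voom and 1.90 without flow cell 2, and -1.62 to 0.58 with single libraries left out. For colon D3M relative to ND it was 0.78 without flow cell 2. For ileum D1M relative to ND it was 0.56 with limma voom, and -1.56 to 0.88 with single libraries left out. For ileum D3M relative to D1M it was -0.94 with limma voom and -1.28 without the flow cell term, and -1.61 to 0.96 with single libraries left out. For ileum D3M relative to ND it was -2.18 without the flow cell term and -2.12 with only these 2 groups, and -2.04 to 0.86 with single libraries left out. Between tissues single libraries gave -1.85 to -0.30.

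For the follicle epithelium genes the median was -1.53 without flow cell 2 for colon D3M relative to D1M, -0.27 with DESeq2 for ileum D1M relative to ND, -0.58 with limma voom for ileum D3M relative to D1M and -1.07 without the flow cell term for ileum D3M relative to ND. Between tissues it was 1.36 with limma voom, 1.29 with the replicate block, 1.42 with that block and no flow cell term and -0.66 without flow cell 2. With single libraries left out it ran from -0.46 to 0.54 for colon D1M relative to ND, -0.86 to 0.13 for colon D3M relative to ND, -0.75 to 0.36 for ileum D3M relative to ND and 0.66 to 1.45 between tissues. For the plasma cell genes it was -0.39 in the difference of changes and 0.66 for colon D1M relative to ND without flow cell 2, and -1.43 with limma voom and -1.46 to -0.87 with single libraries left out between tissues. The cause of these shifts was not tested. Fcer2, Blk, Bank1, Pax5, Cxcr5 and Ccr7 were too low in most colon libraries to be tested there.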
